A study of Mus musculus with 8 samples.

Results

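Transcript levels were examined for 10 genes that sense or answer to mechanical load and the state of the actin cytoskeleton: *Yap1*, *Wwtr1*, *Tead1*, *Tead2*, *Tead3*, *Tead4*, *Ankrd1*, *Amotl2*, *Lats2* and *Srf*. They were taken by symbol from the 18957 genes listed for each library, and all 10 were found. The RNA came from cardiac fibroblasts of 4 WT and 4 *Pdgfra-Cre:LmnaF/F* mice of the strain C57BL/6 (mixed), aged 3 to 4 weeks, with 1 library per mouse. In the *Pdgfra-Cre:LmnaF/F* mice both *Lmna* alleles carry a floxed exon 2, which is cut out by Cre recombinase from a bacterial artificial chromosome transgene driven by *Pdgfra*. The WT mice were littermates with wild-type alleles only, so that the Cre transgene itself differs between the groups too. *Pdgfra* is transcribed outside the heart as well as in a few developing cardiac myocytes, so deletion of *Lmna* is not limited to cardiac fibroblasts and reaches some myocytes in these mice. Ventricles were digested with collagenase, and living cells that carried PDGFRA and lacked haematopoietic lineage markers were sorted by flow cytometry.

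YAP (encoded by *Yap1*) and TAZ (encoded by *Wwtr1*) are transcriptional coactivators. The Hippo kinases, among them LATS2, phosphorylate both proteins and hold them in the cytoplasm, and tension on the cytoskeleton lets them enter the nucleus, where they bind DNA through the TEAD transcription factors. SRF is a transcription factor with 2 kinds of partners: the MRTF cofactors, which are released when actin polymerizes and drive cytoskeletal genes, and the ternary complex factors (TCF) such as ELK1, which answer to MAP kinase signalling and drive immediate-early genes. Lamin A and lamin C, the products of *Lmna*, line the inner nuclear membrane and join the nucleus to the cytoskeleton. YAP, TAZ and MRTF are controlled largely by where the protein sits in the cell, which RNA levels do not measure.

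Promoter sequences are shown for 3 members whose window holds a TEAD or SRF motif, the YAP target genes *Ankrd1* and *Amotl2* and *Srf* itself, and for *Egr2*. Of the SRF target genes listed below, *Egr2* was the only one that edgeR called as different between the genotypes, while DESeq2 called more of them. RefSeq (GRCm38.p6) gave windows of 250 bases upstream of the transcription start for 8 of the 10 members, and none was used here for *Tead1* and *Tead4*. The TEAD motif GGAATG, searched on both strands, was found in 5 of these 8 members (*Yap1*, *Wwtr1*, *Tead3*, *Ankrd1* and *Amotl2*), and in 14.4% of all 27025 genes with such a window. Neither motif was found in the 2 windows of *Lats2*, also a YAP target gene, or in the window of *Tead2*. The CArG box, to which SRF binds, was found in *Srf* alone among the members and in 1.62% of all genes. The *Ankrd1* window (chr19:36119845-36120094, minus strand) holds GGAATG 210 and 123 bases before the start. The *Amotl2* window (chr9:102717554-102717803, plus strand) holds it on the other strand, read as CATTCC, 65 bases before the start. The *Srf* window (chr17:46556163-46556412, minus strand) holds CArG boxes 82 and 62 bases before the start. The *Egr2* window (chr10:67537619-67537868, plus strand) belongs to 1 of 5 annotated starts, of which 4 have a CArG box within the window. Capitals mark the motifs, each sequence is written 5′ to 3′ on the strand of the gene, and a match is not evidence of binding.
Ankrd1: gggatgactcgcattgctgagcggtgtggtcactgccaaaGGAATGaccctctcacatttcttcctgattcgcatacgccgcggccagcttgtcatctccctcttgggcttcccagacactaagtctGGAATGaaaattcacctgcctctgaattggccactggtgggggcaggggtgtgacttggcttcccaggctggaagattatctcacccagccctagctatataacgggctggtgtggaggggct
Amotl2: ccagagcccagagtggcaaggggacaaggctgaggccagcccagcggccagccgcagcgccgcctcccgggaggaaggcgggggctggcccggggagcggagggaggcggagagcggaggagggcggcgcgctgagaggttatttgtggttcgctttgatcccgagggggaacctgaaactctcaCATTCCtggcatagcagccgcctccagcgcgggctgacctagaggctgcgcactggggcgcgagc
Srf: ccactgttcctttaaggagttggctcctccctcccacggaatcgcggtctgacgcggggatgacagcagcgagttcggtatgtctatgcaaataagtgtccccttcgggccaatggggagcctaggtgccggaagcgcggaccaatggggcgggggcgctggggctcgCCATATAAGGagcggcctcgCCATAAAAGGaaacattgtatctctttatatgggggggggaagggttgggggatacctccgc
Egr2: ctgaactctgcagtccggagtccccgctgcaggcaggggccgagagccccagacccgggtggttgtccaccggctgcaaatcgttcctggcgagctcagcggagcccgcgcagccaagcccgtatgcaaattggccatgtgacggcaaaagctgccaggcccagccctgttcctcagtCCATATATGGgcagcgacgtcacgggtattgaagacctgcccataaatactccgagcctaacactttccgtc

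Total counts lay between 2080555 and 10741519 in the WT libraries and between 8284882 and 12502949 in the *Pdgfra-Cre:LmnaF/F* libraries. Levels are given as CPM, which are counts scaled to a library of 1000000 counts after TMM normalization. A count of 3, taken as the floor, equals 0.25 to 1.51 CPM depending on the library, and such floors cover counting error only. Of 13036 genes that passed a filter on low counts, 53 differed between the genotypes at a Benjamini-Hochberg adjusted p under 0.05 in the quasi-likelihood test of edgeR, which was 0.407% of the genes tested. *Lmna* was at 331, 274, 483 and 374 CPM in WT replicates 1 to 4 and at 126, 97.4, 130 and 90.4 CPM in *Pdgfra-Cre:LmnaF/F* replicates 1 to 4. The groups did not overlap, and the log2 fold change was -1.72 (SE 0.22, edgeR adjusted p = 0.00182). Fibroblast markers summed to 48141 to 54990 CPM in WT and 41473 to 56572 CPM in *Pdgfra-Cre:LmnaF/F*. Cardiac myocyte markers summed to 286 to 668 CPM in WT, to 225 to 418 CPM in *Pdgfra-Cre:LmnaF/F* replicates 1 to 3, and to 3314 CPM in *Pdgfra-Cre:LmnaF/F* replicate 4. The sums of endothelial, mural, epicardial, haematopoietic and Schwann cell markers overlapped between the genotypes, and no marker sum passed the threshold (exact two-sided permutation tests, adjusted p between 0.3 and 0.943). Of the single markers, 7 of 8 endothelial and 6 of 6 epicardial ones had a log2 fold change under 0, as had 48.2% of all genes tested, and 7 of 8 tested cardiac myocyte and 4 of 5 tested haematopoietic ones had one above 0. No marker of these 4 lists was called by edgeR (0.407% of all genes tested), and DESeq2 called 1 endothelial marker as lower (1.22% of the genes it tested). Beside 3.97% of all genes tested, the groups did not overlap, with lower values, for the endothelial markers *Tek* (377 to 543 CPM in WT, 287 to 342 CPM in *Pdgfra-Cre:LmnaF/F*) and *Cdh5* (40.8 to 62.8 and 8.13 to 38.3 CPM). Their part in the results was not tested. Y-linked transcripts summed to 143 to 230 CPM in WT replicates 1, 2 and 4 and to 273 CPM in *Pdgfra-Cre:LmnaF/F* replicate 4, against at most 1.96 CPM in the other 4 libraries, so sex, which the labels do not give, is unbalanced between the groups.

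None of the members differed between the genotypes at the threshold. Of the 10 members, 9 passed the filter on low counts and 0 of these 9 were called in the edgeR test, beside the 0.407% of all genes tested. The count at an unadjusted p under 0.05 was also 0 of 9 in this fit, where 11.8% of all genes tested reached it, and DESeq2 and limma-voom called 0 of 9 too. Some alternative edgeR fits gave an unadjusted p under 0.05 for *Ankrd1* or *Amotl2*, though neither was called. With the Y-linked level as a covariate it was 0.00712 for *Ankrd1* and 0.00341 for *Amotl2*. For *Amotl2* it was 0.0414 and 0.0208 with 1 and 2 factors of unwanted variation (RUVr). The WT and *Pdgfra-Cre:LmnaF/F* values overlapped for every member, whereas the groups did not overlap for 8.03% of the genes tested. The median log2 fold change of the 9 members was 0.04, beside 0.02 over all genes tested, with 5 members higher and 4 lower. *Ankrd1* had the largest log2 fold change, 3.04, with the widest interval, and those of the other 8 lay between -0.28 for *Lats2* and 0.39 for *Amotl2*.

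**Figure D1:**
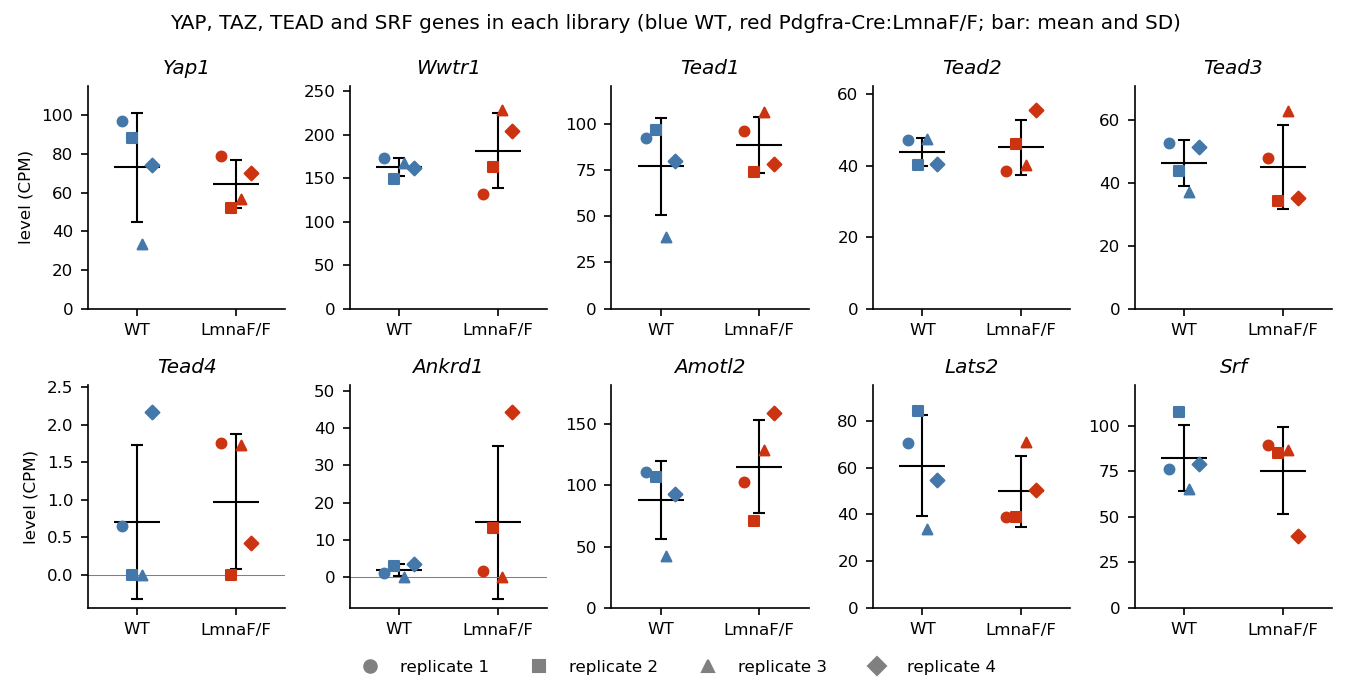
Level of each of the 10 genes in CPM (y axis, linear, a separate scale for each gene) in the 4 WT libraries (blue) and the 4 Pdgfra-Cre:LmnaF/F libraries (red), with a marker shape for each replicate number and black bars for the mean and SD. The groups overlap for every gene, WT replicate 3 is the lowest WT library for Yap1, Tead1, Amotl2 and Lats2, and Pdgfra-Cre:LmnaF/F replicate 4 has the highest Ankrd1 and the lowest Srf.

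Per kilobase of exon, *Wwtr1* was the most abundant of the 10 transcripts in both genotypes, at 34.1 ± 2.17 CPM per kb in WT and 38.0 ± 8.94 CPM per kb in *Pdgfra-Cre:LmnaF/F* (mean ± SD, n = 4 each). *Srf* followed at 28.4 ± 6.23 CPM per kb in WT and *Amotl2* at 14.04 ± 5.05 CPM per kb. *Tead2*, *Lats2*, *Yap1*, *Tead3* and *Tead1* came next, in this order, with means between 9.15 and 5.67 CPM per kb in WT. *Ankrd1* averaged 0.647 and *Tead4* 0.197 CPM per kb in WT, and the order of the 10 means was the same in *Pdgfra-Cre:LmnaF/F*. In WT, neighbours in this order overlapped in range except for *Srf* over *Amotl2* and for *Tead1* over *Ankrd1*. In *Pdgfra-Cre:LmnaF/F* all neighbours overlapped, *Tead1* and *Ankrd1* included, because *Ankrd1* ran from 0 to 15.4 CPM per kb.

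The coactivators showed no genotype difference beyond the spread between mice. *Yap1* (chr9:7931999-8004596, minus strand, mm10) was at 97.0, 88.1, 33.4 and 74.2 CPM in WT and at 78.9, 52.1, 56.6 and 70.2 CPM in *Pdgfra-Cre:LmnaF/F*. WT held both the highest and the lowest of the 8 values. For *Yap1* the log2 difference between genotypes was -0.18 (SE 0.28, 95% interval -0.78 to 0.42, edgeR adjusted p = 0.878), and it was 0.23 with the Y-linked level as a covariate. Dropping a single library gave values from -0.427 without WT replicate 3 (edgeR adjusted p = 0.476) to -0.004 without WT replicate 1. *Wwtr1* (chr3:57455649-57575910, minus strand) was at 174, 149, 168 and 162 CPM in WT and at 132, 163, 228 and 204 CPM in *Pdgfra-Cre:LmnaF/F*. Its *Pdgfra-Cre:LmnaF/F* libraries lay on both sides of the WT libraries, with an SD of 42.7 against 10.4 CPM. For *Wwtr1* the log2 fold change was 0.15 (SE 0.20, 95% interval -0.27 to 0.58, edgeR adjusted p = 0.846).

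More *Wwtr1* than *Yap1* reads were counted in each of the 8 libraries, and as *Yap1* has the longer exons the excess per kilobase was greater still. The ratio of their counts within a library needs no scaling between libraries. It was 1.79, 1.70, 5.02 and 2.18 in WT and 1.67, 3.12, 4.02 and 2.91 in *Pdgfra-Cre:LmnaF/F*. WT replicate 3 had the highest ratio of all, and the other 3 WT libraries were below *Pdgfra-Cre:LmnaF/F* replicates 2 to 4. The geometric means were 2.40 and 2.80, a log2 difference of 0.22 (exact two-sided permutation test, p = 0.629, with 0.0286 the smallest p that 4 against 4 allows). When a single library was dropped, the log2 difference ranged from 0.04 without *Pdgfra-Cre:LmnaF/F* replicate 3 to 0.57 without WT replicate 3 (exact permutation p = 0.943 and 0.171). It was 0.05 without WT replicate 2 and 0.08 without WT replicate 1.

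**Figure D2:**
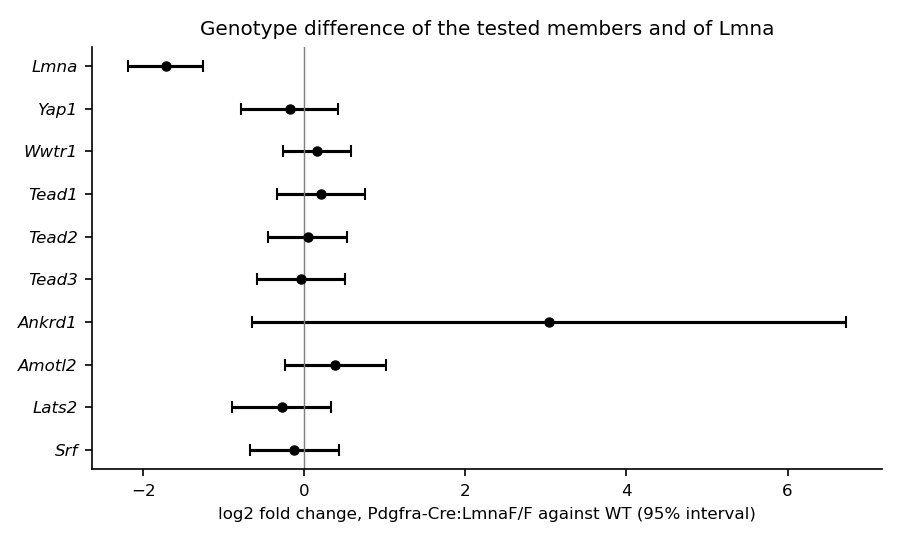
Log2 fold change of Pdgfra-Cre:LmnaF/F against WT (x axis) for Lmna and for the 9 members that passed the filter (y axis); points are edgeR estimates and bars 95% intervals. The interval of Lmna lies below 0, the intervals of all 9 members include 0, and that of Ankrd1, from -0.65 to 6.73, is the widest.

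Among the TEAD factors, which carry YAP and TAZ to DNA, *Tead1*, *Tead2* and *Tead3* were all transcribed and *Tead4* was close to the floor. *Tead1* (chr7:112679318-112906807, plus strand) was at 92.4, 96.6, 38.8 and 80.1 CPM in WT and at 96.1, 73.7, 106 and 78.5 CPM in *Pdgfra-Cre:LmnaF/F*. WT replicate 3 stood below the other 7 libraries, which spanned 73.7 to 106 CPM. The log2 fold change was 0.21 (SE 0.26, 95% interval -0.34 to 0.76, edgeR adjusted p = 0.840), and it was -0.02 without WT replicate 3. *Tead2* (chr7:45215753-45233644, plus strand) was at 47.3, 40.3, 47.3 and 40.4 CPM in WT and at 38.5, 46.1, 40.3 and 55.7 CPM in *Pdgfra-Cre:LmnaF/F*. Its SD in WT, 4.02 CPM, was smaller than those of *Tead1* and *Tead3*. For *Tead2* the log2 fold change was 0.04 (SE 0.23, 95% interval -0.45 to 0.53, edgeR adjusted p = 0.968), and it was -0.08 without *Pdgfra-Cre:LmnaF/F* replicate 4.

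*Tead3* (chr17:28331671-28350817, minus strand) was at 52.8, 43.8, 37.1 and 51.7 CPM in WT and at 47.9, 34.4, 63.0 and 35.4 CPM in *Pdgfra-Cre:LmnaF/F*. The *Pdgfra-Cre:LmnaF/F* libraries held the highest value and the lowest 2 values. For *Tead3* the log2 fold change was -0.04 (SE 0.26, 95% interval -0.58 to 0.51, edgeR adjusted p = 0.973). *Tead4* (chr6:128224288-128300823, minus strand) had 7, 0, 0 and 21 counts in WT and 17, 0, 15 and 5 counts in *Pdgfra-Cre:LmnaF/F*. It did not pass the filter and was not tested, and it was undetected in 3 of the 8 libraries, where a count of 0 allows up to 3 counts.

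As a share of the summed TEAD level per kilobase, *Tead2* made up 42.4% ± 7.91 in WT and 41.6% ± 9.16 in *Pdgfra-Cre:LmnaF/F* (mean ± SD, n = 4 each). *Tead3* made up 31.4% ± 1.96 and 29.0% ± 5.81, *Tead1* 25.4% ± 7.01 and 28.4% ± 2.67, and *Tead4* 0.851% ± 1.26 and 1.12% ± 1.03. None of the 4 shares passed the threshold for a genotype difference (exact two-sided permutation tests, p between 0.429 and 0.914, adjusted p = 0.914 for each). WT replicate 3 was apart from the other WT libraries with 54.1% *Tead2* and 15.7% *Tead1*, where the other 3 had 37.3% to 39.9% *Tead2* and 26.1% to 32.3% *Tead1*.

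**Figure D3:**
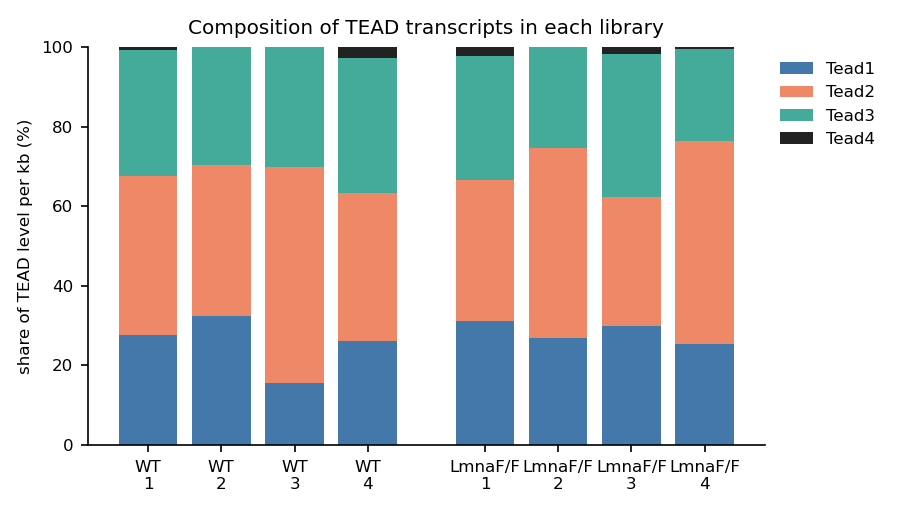
Share of each TEAD gene (stacked bars, y axis in percent) in the summed TEAD level per kilobase of exon, for each of the 8 libraries (x axis, genotype and replicate number). Tead2 is the largest share in 7 libraries and WT replicate 3 has the largest Tead2 share, 54.1%; Tead4 reaches at most 2.67%.

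*Ankrd1*, *Amotl2* and *Lats2* are genes that YAP and TEAD are known to activate. *Ankrd1* encodes a protein of the cardiac sarcomere and nucleus and is abundant in strained cardiac myocytes. *Ankrd1* (chr19:36111961-36120099, minus strand) had 11, 6, 0 and 33 counts in WT and 16, 126, 0 and 532 counts in *Pdgfra-Cre:LmnaF/F*, which is 1.03, 3.02, 0 and 3.42 CPM against 1.66, 13.1, 0 and 44.3 CPM. High values occurred in *Pdgfra-Cre:LmnaF/F* replicates 2 and 4 only, and replicate 3 of each genotype had no read, where a count of 0 allows up to 0.479 CPM in WT and 0.345 CPM in *Pdgfra-Cre:LmnaF/F*. The log2 fold change was 3.04 (SE 1.63, 95% interval -0.65 to 6.73, edgeR adjusted p = 0.530). Dropping a single library gave values from 1.42 without *Pdgfra-Cre:LmnaF/F* replicate 4 to 3.70 without WT replicate 4, and it was 0.52 by limma-voom with quality weights (adjusted p = 0.914) and 4.46 with the Y-linked level as a covariate (edgeR adjusted p = 0.162).

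The same *Pdgfra-Cre:LmnaF/F* replicate 4 held the most cardiac myocyte RNA. All 9 myocyte markers, *Myh6*, *Tnnt2* and *Nppa* among them, were highest in this library, with *Myh6* at 2047 CPM against 97.5 to 368 CPM in the other 7. *Pdgfra-Cre:LmnaF/F* replicate 2, with 13.1 CPM of *Ankrd1*, had a marker sum of 418 CPM, inside the range of the WT libraries. *Ankrd1* amounted to 0.737%, 3.14%, 0 and 1.34% of the myocyte marker sum in *Pdgfra-Cre:LmnaF/F* replicates 1 to 4 and to at most 0.595% in WT. In bulk RNA of sorted cells, more cells of a type and more RNA per cell cannot be told apart, and the part of the myocyte RNA in the *Ankrd1* difference was not tested.

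**Figure D4:**
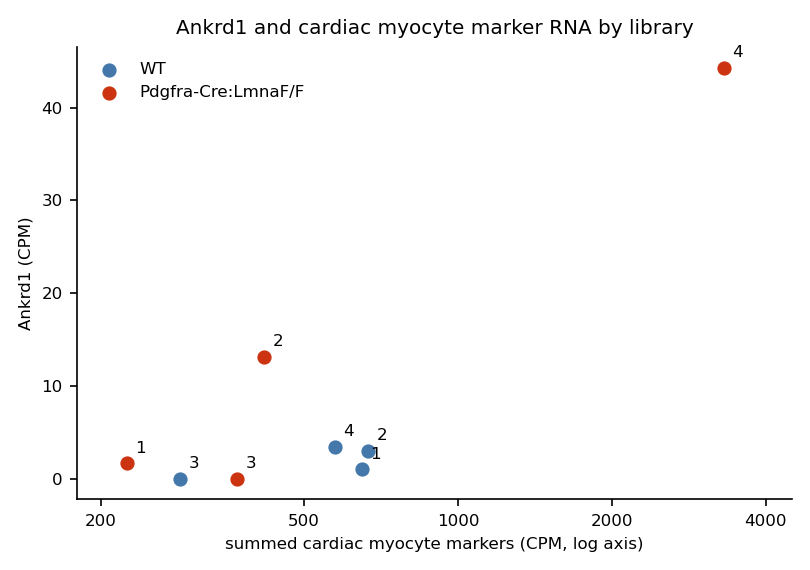
Ankrd1 in CPM (y axis, linear) against the summed level of 9 cardiac myocyte markers in CPM (x axis, log scale) for the 4 WT (blue) and 4 Pdgfra-Cre:LmnaF/F (red) libraries, numbered by replicate. Replicate 4 of Pdgfra-Cre:LmnaF/F is the highest on both axes (44.3 and 3314 CPM), and replicate 2 has 13.1 CPM of Ankrd1 at a marker sum of 418 CPM.

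*Amotl2* encodes an angiomotin that holds YAP at cell junctions. *Amotl2* (chr9:102716672-102733418, plus strand) was at 111, 107, 42.0 and 93.1 CPM in WT and at 103, 70.5, 129 and 159 CPM in *Pdgfra-Cre:LmnaF/F*. The highest 2 values were from *Pdgfra-Cre:LmnaF/F* replicates 3 and 4, and the lowest was from WT replicate 3. The log2 fold change was 0.39 (SE 0.30, 95% interval -0.24 to 1.02, edgeR adjusted p = 0.680). It was 0.15 without WT replicate 3, 0.19 without *Pdgfra-Cre:LmnaF/F* replicate 4, and 0.88 with the Y-linked level as a covariate (edgeR adjusted p = 0.119).

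*Lats2* encodes the kinase that phosphorylates YAP and TAZ, and it is itself a target gene of YAP. *Lats2* (chr14:57689662-57758388, minus strand) was at 70.6, 84.0, 33.7 and 54.9 CPM in WT and at 39.0, 38.9, 70.9 and 50.4 CPM in *Pdgfra-Cre:LmnaF/F*. The highest 2 of the 8 values included 1 library of each genotype, and WT replicate 3 was the lowest. For *Lats2* the log2 difference was -0.28 (SE 0.29, 95% interval -0.89 to 0.33, edgeR adjusted p = 0.795), and it was 0.02 with the Y-linked covariate. Dropping a single library gave values from -0.495 without *Pdgfra-Cre:LmnaF/F* replicate 3 to -0.099 without WT replicate 2. In GENCODE release M21, 42.4% of the exon length of *Lats2* (2955 bp) is shared on the same strand with *Gm49361*, so reads there cannot be assigned to *Lats2* with certainty.

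*Srf* (chr17:46548329-46556175, minus strand) was at 76.1, 108, 65.5 and 79.2 CPM in WT and at 89.5, 85.1, 86.7 and 39.7 CPM in *Pdgfra-Cre:LmnaF/F*. Replicates 1 to 3 of *Pdgfra-Cre:LmnaF/F* lay within 85.1 to 89.5 CPM, and replicate 4, the library with the most myocyte RNA, was the lowest of all 8. The log2 fold change was -0.12 (SE 0.26, 95% interval -0.67 to 0.43, edgeR adjusted p = 0.914), and it was 0.09 without *Pdgfra-Cre:LmnaF/F* replicate 4 and 0.03 without WT replicate 2.

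Several members varied together across libraries, in some pairs mainly through WT replicate 3. In this library *Yap1* was 1.36, *Amotl2* 1.29, *Tead1* 1.20 and *Lats2* 1.02 lower on the log2 scale than the mean of the other 3 WT libraries, while *Wwtr1* differed by 0.05. Such low values were not rare there, since 12.1% of the genes tested were lower still than *Yap1* relative to the other WT libraries and 15.5% lower than *Lats2*. This library also varied most, with an SD of 1.24 over genes for its log2 difference from the other 3 WT libraries, against 0.70 in WT replicate 4, which varied least. Pearson's r over the 8 libraries was 0.832 for *Tead1* and *Amotl2*, 0.803 for *Yap1* and *Tead1* and 0.733 for *Yap1* and *Amotl2*. Without WT replicate 3 these values were 0.362, 0.298 and 0.241. For *Tead1* and *Lats2* r was 0.688 with and 0.577 without this library, for *Tead1* and *Tead3* 0.607 and 0.769, and for *Tead3* and *Lats2* 0.591 and 0.509. *Tead2* and *Srf* ran opposite to each other (r = -0.868 over 8 libraries and -0.862 without WT replicate 3). *Pdgfra-Cre:LmnaF/F* replicate 4 had both the highest *Tead2* (55.7 CPM) and the lowest *Srf* (39.7 CPM), and r without this library was not computed. The libraries behind each r are shared and scaled together, and these values are descriptions.

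The genes whose log2 CPM followed a member most closely over the 8 libraries were *Fam219a* (r = 0.983), *Sema6a* (0.965) and *Lamc1* (0.964) for *Yap1*. They were *Cltc* (0.968), *Mtcl1* (0.965) and *Dnah8* (0.96) for *Srf* and *Rpl23a* (0.963), *Rsph9* (0.954) and *AW551984* (0.953) for *Ankrd1*. *Cltc*, the clathrin heavy chain, and *Lamc1*, a laminin chain, are the best counted of these, while *Dnah8* had no read in 1 library. With 13036 genes and 8 libraries, values of this size are selected from a wide range.

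Around the members, no gene of the upstream pathway passed the threshold in edgeR, which 0.407% of all genes tested passed. Of 19 tested Hippo kinases, adaptors and upstream regulators, 9 were higher and 10 lower, with a median log2 fold change of -0.02. None was called by edgeR (0.407% of all genes tested) or by DESeq2, which called 0.935% of the genes it tested as higher and 1.22% as lower. Of the 19, 3 had an unadjusted p under 0.05, beside 11.8% of all genes tested. The lowest p were those of *Rassf1*, a scaffold of the Hippo kinases (log2 fold change 0.74, edgeR adjusted p = 0.296), the kinase gene *Taok2* (-0.64, adjusted p = 0.373) and *Mob1b*, an activator of LATS kinases (0.69, adjusted p = 0.391). The groups did not overlap for *Mob1b* alone of the 19, with higher values, beside 4.06% of all genes tested. Of 11 tested binding partners of YAP, TAZ and TEAD, 5 were higher and 6 lower, and edgeR called none (0.407% of all genes tested). Of the 11, 3 had an unadjusted p under 0.05 (11.8% of all genes tested), and DESeq2 called 1 as lower, beside 1.22% of the 14339 genes it tested. The groups did not overlap for 3 of the 11, *Amotl1* and *Vgll3* with lower values (3.97% of all genes tested) and *Limd1* with higher values (4.06%). *Amotl1*, an angiomotin like *Amotl2*, was at 394 to 572 CPM in WT and 239 to 294 CPM in *Pdgfra-Cre:LmnaF/F*. Its log2 fold change was -0.76 (SE 0.19, edgeR adjusted p = 0.109), and it was the gene that DESeq2 called (adjusted p = 0.00564). *Vgll3*, a cofactor that binds TEAD in place of YAP, showed a log2 difference of -0.68 (edgeR adjusted p = 0.165), and *Limd1*, a LIM protein that restrains LATS, of 0.69 (adjusted p = 0.204).

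Of 18 other YAP and TEAD target genes, 11 were higher and 7 lower, with a median log2 fold change of 0.12, and edgeR called none (0.407% of all genes tested) while 5 had an unadjusted p under 0.05 (11.8% of all genes tested). The groups did not overlap for *Ccdc80*, with lower values (3.97% of all genes tested), and for *Fjx1*, with higher values (4.06%). *Cyr61* (*Ccn1*), a matricellular protein gene, was at 311, 138, 478 and 149 CPM in WT and at 592, 740, 1226 and 416 CPM in *Pdgfra-Cre:LmnaF/F*. The groups overlapped through WT replicate 3, and the log2 fold change was 1.46 (SE 0.44, edgeR adjusted p = 0.208). *Ccdc80*, a matrix protein gene, was at 1593 to 2530 CPM in WT and 1129 to 1519 CPM in *Pdgfra-Cre:LmnaF/F*, with a log2 fold change of -0.69 (SE 0.22, edgeR adjusted p = 0.187, DESeq2 adjusted p = 0.0234). It was the only gene of the 18 that DESeq2 called, where DESeq2 called 1.22% of the genes it tested as lower. *Dock5*, a Rac exchange factor gene, showed a log2 difference of 1.62 (edgeR adjusted p = 0.210). *Ctgf* (*Ccn2*) and *Igfbp3* were picked after their values were seen. *Ctgf* showed a log2 difference of 0.59 (edgeR adjusted p = 0.556), and *Igfbp3* was at 3629 and 2909 CPM in *Pdgfra-Cre:LmnaF/F* replicates 3 and 4 against 169 to 532 CPM in the other 6 libraries (log2 fold change 2.64, edgeR adjusted p = 0.315).

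Around *Srf*, no cofactor and no cytoskeletal target gene passed the threshold in edgeR, which 0.407% of all genes tested passed. Of 6 SRF cofactors, 2 were higher and 4 lower, with a median log2 fold change of -0.46. None was called by edgeR (0.407% of all genes tested), while 3 had an unadjusted p under 0.05, beside 11.8% of all genes tested. In 2 of the 6, *Elk1* and *Mkl2*, the groups did not overlap, both lower, beside 3.97% of all genes tested. *Elk1*, a ternary complex factor, was at 30.8 to 48.8 CPM in WT and 13.97 to 26.6 CPM in *Pdgfra-Cre:LmnaF/F* (log2 fold change -0.93, SE 0.29, edgeR adjusted p = 0.187). The log2 fold changes of the MRTF genes *Mkl2* (*Mrtfb*) and *Mkl1* (*Mrtfa*) were -0.64 (edgeR adjusted p = 0.226) and -0.64 (adjusted p = 0.372). Of 18 tested SRF-MRTF target genes of 20, which encode actin-binding and contractile proteins, 3 were higher and 15 lower. Neither edgeR, which called 0.407% of all genes tested, nor DESeq2 called any of them. DESeq2 called 0.935% of the genes it tested as higher and 1.22% as lower. The median log2 fold change was -0.33, beside 0.02 over all genes tested, of which 48.2% were lower, and 5 of the 18 had an unadjusted p under 0.05, beside 11.8% of all genes tested. In 2 of the 18, *Tagln2* and *Filip1l*, the groups did not overlap, both lower, beside 3.97% of all genes tested. *Tagln2*, an actin-bundling protein gene, was at 358 to 549 CPM in WT and 128 to 332 CPM in *Pdgfra-Cre:LmnaF/F* (log2 fold change -0.86, SE 0.26, edgeR adjusted p = 0.186). *Vcl* (vinculin) showed a log2 difference of -0.57 (edgeR adjusted p = 0.259) and *Filip1l* of -0.66 (adjusted p = 0.262). Without each library in turn, 3 to 5 of the 18 were higher.

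All 10 SRF-TCF immediate-early target genes had a log2 fold change above 0, with a median of 1.49, and 1 of the 10 was called, where edgeR called 0.176% of all genes tested as higher. In 9 of the 10 the groups did not overlap, beside 4.06% of all genes tested in this direction. *Egr2*, an immediate-early zinc finger factor, rose from 24.4, 11.1, 33.4 and 14.2 CPM in WT to 72.4, 117, 264 and 79.2 CPM in *Pdgfra-Cre:LmnaF/F*. The lowest *Pdgfra-Cre:LmnaF/F* value was above the highest WT value, and the log2 fold change was 2.65 (SE 0.47, edgeR adjusted p = 0.042). *Ier2* showed a log2 difference of 1.31 (edgeR adjusted p = 0.061) and *Fosb* of 1.37 (adjusted p = 0.068). DESeq2 called 8 of the 10 genes as higher, beside 0.935% of the 14339 genes it tested. The edgeR count was 0 without WT replicate 1, WT replicate 4 or *Pdgfra-Cre:LmnaF/F* replicate 2, and it was 2 without WT replicate 2, 4 without WT replicate 3 and 3 without *Pdgfra-Cre:LmnaF/F* replicate 4.

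The immediate-early list summed to 1690 to 4373 CPM in WT and 5970 to 10600 CPM in *Pdgfra-Cre:LmnaF/F*. A list of genes known to respond to enzymatic tissue dissociation summed to 2781 to 3999 CPM in WT and 4798 to 6238 CPM in *Pdgfra-Cre:LmnaF/F*, and 18 of its 19 genes had a log2 fold change above 0, with a median of 0.57, where 51.8% of all genes tested were above 0. edgeR called 3 of these 19 as higher, beside 0.176% of all genes tested, *Ier3* (log2 fold change 1.88, adjusted p = 0.016), *Btg2* (2.08, adjusted p = 0.033) and *Atf3* (2.18, adjusted p = 0.047), and DESeq2 called 6, beside 0.935% of the genes it tested. The edgeR count was 0 without WT replicate 4 or *Pdgfra-Cre:LmnaF/F* replicate 3 and 1 without WT replicate 1 or *Pdgfra-Cre:LmnaF/F* replicate 2. Both lists hold immediate-early genes that collagenase digestion is known to induce, and the part of the dissociation in the *Egr2* difference was not tested.

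**Figure D5:**
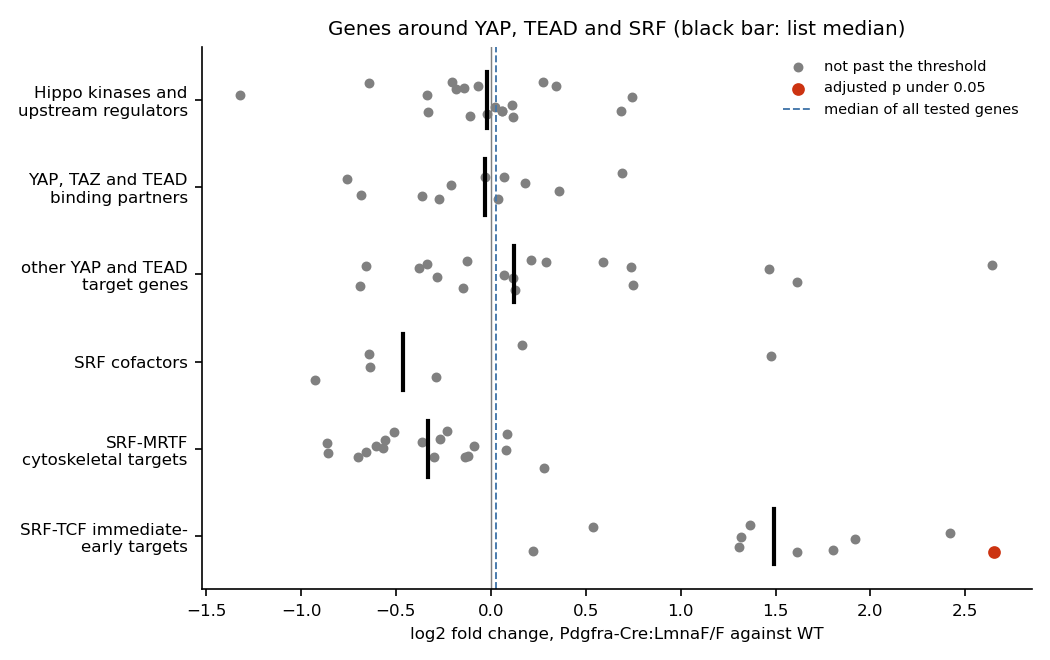
Log2 fold change of Pdgfra-Cre:LmnaF/F against WT (x axis) for each tested gene of 6 lists around YAP, TEAD and SRF (y axis; vertical scatter within a list has no meaning); black bars are list medians, the dashed line is the median of all genes tested (0.02), and red marks an edgeR adjusted p under 0.05. The median is 1.49 for the immediate-early genes, where Egr2 is red, and -0.33 for the cytoskeletal genes, where no gene is.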

How the data were processed

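The authors sorted the cells, depleted ribosomal RNA and sequenced strand-specific libraries as 150 bp paired-end reads, with HISAT2 as the aligner, mm10 as the genome and featureCounts as the counter on GENCODE annotation. The deposited values are whole-number counts per gene symbol, not scaled for library size, and the RUV normalization of the study is not in them. From these counts, TMM factors, filterByExpr (13036 genes kept) and the quasi-likelihood test of edgeR 4.0.16 in R 4.3.3 were applied to all 8 libraries with genotype as the only term, with Benjamini-Hochberg adjustment over all genes tested and a threshold of 0.05. DESeq2 1.42.0 and limma 3.58.1 (voom), other scalings and filters, RUVr, a Y-linked covariate, thinning, a replicate block and leaving out each library were alternatives. log2 CPM used a prior count of 2. Exon lengths came from GENCODE release M21. Single measures were compared with exact permutation tests over libraries. The procedure was tested on simulated data. No pair of libraries was identical. Counts of 3 or fewer in a library were taken to be at the floor.

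The members and gene lists were chosen with earlier results of these data known. Named genes were *Lmna*, the members, in each list the genes past the threshold and the 3 with the lowest p, the 3 genes most correlated with each of *Ankrd1*, *Yap1* and *Srf*, and marker genes that moved with a member. *Ctgf*, *Igfbp3* and *Fjx1* fall outside this rule. *Vgll2* was not among the listed symbols. The result of 1 further gene list is not reported here. Groups and replicate numbers came from the labels, which do not give sex.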

Additional observations from a re-analysis of the deposited data

Results flagged for a closer look

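In 4 of 50 groups of 4 libraries, the library at an extreme was further from its nearest neighbour than the 95% critical value of Dixon's test allows, relative to the range of the group. Chance gives this in about 1 in 20 groups. *Srf* was at 39.7 CPM in *Pdgfra-Cre:LmnaF/F* replicate 4, against 85.1 to 89.5 CPM in the other 3 libraries of that genotype. The cardiac myocyte markers summed to 3314 CPM in the same library, against 225 to 418 CPM. *Tead2* made up 54.1% of the TEAD level in WT replicate 3, against 37.3% to 39.9% in the other WT libraries. The ratio of *Wwtr1* to *Yap1* counts was 5.02 in WT replicate 3, against 1.70 to 2.18.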

How the results depend on the processing

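No member was called under any of the 19 alternatives, and *Lmna* kept its call in all 19 (log2 fold change -1.91 to -1.56). The count of called genes, 53, was 309 by DESeq2, 123 by limma-voom, 282 without the filter, 83 and 348 with 1 and 2 RUVr factors, and 110 with the Y-linked covariate. Leaving out 1 library gave 20 to 83. It was 29 without WT replicate 1, 83 without WT replicate 3, 20 without WT replicate 4, and 25, 23 and 81 without *Pdgfra-Cre:LmnaF/F* replicates 2, 3 and 4. Members that were not called changed direction: *Yap1* (0.232) and *Lats2* (0.019) with the Y-linked covariate and *Tead3* (0.095) after thinning to the smallest library. Without 1 library, log2 fold changes ranged from -0.241 to 0.067 for *Tead3*, -0.219 to 0.091 for *Srf*, -0.021 to 0.323 for *Tead1* and -0.078 to 0.106 for *Tead2*. Differences in TEAD share then ranged, in percentage points, from -0.289 to 5.25 for *Tead1*, -3.93 to 3.13 for *Tead2* and -0.0688 to 0.879 for *Tead4*, and log2 marker sums from -0.664 to 0.627 for cardiac myocytes and -0.266 to 0.224 for Schwann cells, whose difference was 0.0318 with raw library totals. DESeq2 called 1 binding partner, 1 YAP and TEAD target, 8 immediate-early and 6 dissociation genes. Alternatives chosen after seeing the data gave 1 SRF-MRTF gene with the Y-linked covariate and 5 immediate-early genes with 1 RUVr factor, and without 1 library 0 to 4 immediate-early and 0 to 4 dissociation genes were called. The cause of these changes was not tested.

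Same-numbered libraries had correlations of -0.03 to 0.04 in their deviations, and only those of replicate 4 were each other's best match. Such correlations cannot decide whether the replicate numbers pair the libraries. With the replicate block 51 genes and 0 members were called. For the *Wwtr1* to *Yap1* ratio, whose log2 difference of 0.22 is fixed by construction, sign flips within replicate numbers gave an exact permutation p of 0.625. *Ankrd1* could not be tested after thinning or under the filter of 10 counts in every library. Depth limits *Tead4*, with at most 21 counts in a library, and the libraries in which *Ankrd1* had 0 counts.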
